A study of Mus musculus with 4 samples.

Results

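Ribosomal protein (RP) genes were taken as all genes whose symbol starts with Rpl or Rps and a digit, without the Rps6k kinases and without symbols that hold -ps. This gave 83 of the 27998 genes in the files, 50 named Rpl for the large subunit and 33 named Rps for the small subunit. The choice rests on symbols and not on measured values. Rps19bp1 entered by its symbol, although it encodes a protein that binds an RP and is no subunit itself. Rpl6l entered in the same way, although it is annotated as a processed pseudogene. Further genes, among them Rplp0, Rplp1, Rplp2, Rpsa and Fau, encode ribosomal proteins but fall outside the symbol rule, and are given below as a list of their own.

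The ribosome is built from a large and a small subunit, each a set of ribosomal RNAs bound by many different proteins that are needed in about equal numbers. The messenger RNAs of these proteins are among the most abundant in growing cells. Most begin with a run of pyrimidines, the terminal oligopyrimidine tract, through which the mTOR pathway and the RNA-binding protein Larp1 control their translation. Myc raises the transcription of RP genes and of the factors that assemble ribosomes. In the blood lineages, blood stem cells keep protein synthesis low, and defects of single RP genes such as Rps19 or Rpl11 cause anaemia in Diamond-Blackfan patients.

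The mice carried CDH5-CreER, a tamoxifen-dependent Cre under the promoter of the VE-cadherin gene of endothelium. Control mice were ID1 +/+ ID3+/-, titled WT although 1 Id3 copy is missing, and the others were ID1 -/- ID3-/-. Tamoxifen was injected on 5 consecutive days. Cells that were lineage-negative and positive for CD31, VECadherin and Endomucin were sorted into a Sca+ gate, titled H vessels, and a Sca- gate, titled sinusoidal endothelial cells. Each of the 4 groups is 1 library of 10x Genomics Chromium single-cell RNA sequencing, so no difference has a replicate check. How many mice went into each was not stated.

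The 4 libraries held 3641 barcodes, of which 3567 passed the filters, with 3234772 to 11065352 UMIs (unique molecular identifiers, counts of captured molecules) per library. The cells carried transcripts of blood cells. Only 28 of 3567 cells held any UMI of Cdh5, which encodes VE-cadherin (45 UMIs), and 33 any UMI of the endothelial receptor gene Kdr (35 UMIs). Markers that blood cells can share with endothelium were wider spread: Pecam1, which encodes CD31, had UMIs in 23.5% of cells, Emcn, which encodes Endomucin, in 16.9%, and Ptprc, the pan-leukocyte gene of CD45, in 47.2%. Stab2, Plvap, Flt4 and Ptprb had 3 to 5 UMIs each. Tek, of the same list of endothelial genes, had 176 UMIs in 160 cells (4.49%), and was seen in 8.19% of cells of the type H control. The Cre is driven by the Cdh5 promoter, and few of these cells held Cdh5 UMIs. Id3 stood at 33.0 and 84.9 CPM (UMIs of a gene per 1000000 UMIs) in the control and knockout-labelled type H libraries and at 54.7 and 84.8 CPM in the sinusoidal ones, and Id1 at 4.08 and 2.99 and at 26.1 and 26.3 CPM. A level of Id3 above that of the control goes against the label, so the libraries are called labelled knockout throughout, and every direction below follows the labels. Whether the counted 3′ tags lie inside the deleted part of either gene was not stated. Kept cells had a median of 15428 UMIs in the sinusoidal labelled knockout, 6142 in its control, and 6420 and 5597 in the control and labelled knockout of the type H gate. Xist and Y-linked UMIs marked mostly different cells of every library, so each held cells of more than 1 mouse. Jchain, a plasma cell gene, stood at 444 to 484 CPM in the 3 progenitor classes described below, and the part of free RNA in any class was not tested. Pairs of libraries shared 0 to 2 barcodes.

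The bases around the start of transcription were searched for the tract that marks this gene family. RefSeq promoters (GRCm38.p6) were found for 63 of the 83 genes. A run of at least 7 bases that are all C or T, on the transcribed strand and overlapping the 3 bases on either side of the start, was present in 26 of these 63 genes (41.3%) and in 13.2% of 26962 other genes. Over single promoters the shares were 34.7% of 75 and 11.4% of all 32851. Each line gives 15 bases before and 15 bases from the start on, 5′ to 3′, with the longest run near the start in capitals. These genes are shown because the results below turn on them. Rpl35 and Rps27 were among those that differed by label. Rpl12 and Rpl14 were lower in Ngp/Camp-high and monocyte-like cells than in Elane-high cells. Rpl22l1, Rpl36al, Rps27l and Rpl41 stood apart from the other RP genes in plasma cell-like cells, with Rpl22 and Rpl36a as the paralogues of 2 of them.
Rpl35, chr2:39005117-39005146, minus strand: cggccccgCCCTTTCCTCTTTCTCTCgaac
Rps27, chr3:90213634-90213663, minus strand: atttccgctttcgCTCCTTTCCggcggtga
Rpl12, chr2:32961697-32961726, plus strand: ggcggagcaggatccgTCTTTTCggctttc
Rpl14, chr9:120571502-120571531, plus strand: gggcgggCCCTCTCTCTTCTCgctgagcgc
Rpl22l1, chr3:28805493-28805522, plus strand: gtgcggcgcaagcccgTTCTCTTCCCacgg
Rpl22, chr4:152324421-152324450, plus strand: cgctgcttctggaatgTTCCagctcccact
Rpl36a, chrX:134585639-134585668, plus strand: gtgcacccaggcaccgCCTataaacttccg
Rpl36al, chr12:69184053-69184082, minus strand: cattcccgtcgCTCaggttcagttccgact
Rps27l, chr9:66946071-66946100, plus strand: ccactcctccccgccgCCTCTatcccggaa
Rpl41, chr10:128549154-128549183, minus strand: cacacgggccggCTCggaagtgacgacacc
Rpl35, Rps27, Rpl12, Rpl14 and Rpl22l1 held a run of 18, 9, 7, 14 and 10 bases. The windows of Rpl22, Rpl36a, Rpl36al, Rps27l and Rpl41 held runs of 4, 3, 3, 5 and 3 bases only. A short run says only that these letters are not at this annotated start. Some runs, such as those of Rpl35 and Rpl14, began before the annotated start, so they are not shown to open the transcript. Rpl22 has a further annotated start, in chr4:152325711-152325740, with a run of 1 base.

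The cells were sorted into 7 classes by clusters formed without the RP genes. In the type H gate these were Procr-positive cells (Procr encodes a surface protein of blood stem cells), Flt3-positive cells (Flt3 is the cytokine receptor of early lymphoid and myeloid progenitors), low-UMI Hlf-positive cells (Hlf is a stem cell transcription factor) and plasma cell-like cells. In the sinusoidal gate they were Elane-high cells (granulocyte precursors make the protease Elane), Ngp/Camp-high cells (later neutrophil precursors make these granule proteins) and monocyte-like cells. Only 2 of 10 markers of the Flt3 list were raised in its clusters, and Procr stood at 152 and 126 CPM there against 183 and 168 CPM in the Procr-positive class, so that class is named by Flt3 alone, at 107 and 132 CPM against 7.13 and 13 CPM.

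RP transcripts took the largest share of UMIs in the Procr-positive cells and the smallest in the Ngp/Camp-high cells, in each label. In the order control and labelled knockout, the share was 33.3% (282 cells) and 34.4% (613 cells) in Procr-positive cells, 32.6% (48) and 33.9% (379) in low-UMI Hlf-positive cells, and 31.4% (264) and 32.6% (468) in Flt3-positive cells. Elane-high cells held 27.2% (71) and 28.7% (291). The 3 progenitor classes of the type H gate thus lay within a few points of each other and above every other class. Classes of the 2 gates come from different libraries, so between gates class, gate and library cannot be told apart. Monocyte-like cells held 19.0% (171) and 21.3% (137), plasma cell-like cells 18.2% (109) and 20.3% (167), and Ngp/Camp-high cells 11.2% (26) and 17.9% (53). The exact 95% (Clopper-Pearson) interval was widest for the low-UMI Hlf-positive cells of the control, from 32.4% to 32.8%, and covers counting error only. The gap between Procr-positive and low-UMI Hlf-positive cells was smaller than the gap between the labels within either class (1.14 and 1.34 points), and so was the gap between plasma cell-like and monocyte-like cells (label gaps of 2.10 and 2.29 points), so the order of these neighbours is not settled. The lowest share of any cluster was outside the classes, 2.61% in 28 cells with haemoglobin transcripts.

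**Figure D1:**
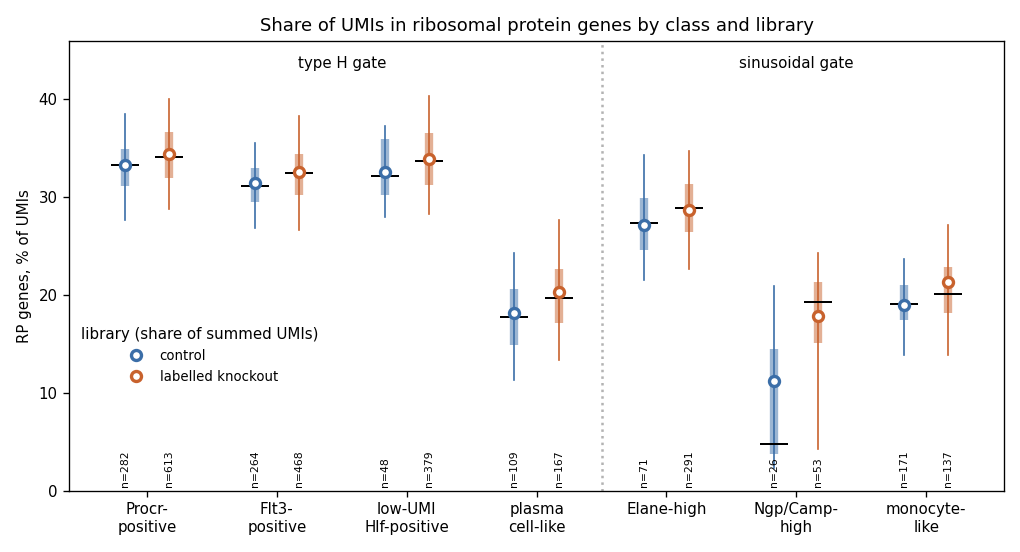
Share of UMIs in RP genes (y axis, percent) for the 7 classes (x axis) in the control (blue) and labelled knockout (orange) library of the gate. Circles are shares of summed UMIs, black lines the median cell, thick bars the middle 50% and thin lines the 5th to 95th percentile of cells, which are cells of 1 library and not replicates. The Ngp/Camp-high class is the widest, with single cells from 2.31% to 20.9% between those percentiles in the control.

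Single cells spread within every class. The 5th and 95th percentiles of cells were 27.6% and 38.5% in Procr-positive cells of the control. They were 13.8% and 23.6% in monocyte-like cells of the control, a similar spread in points around a lower share. In the Ngp/Camp-high class of the control the median cell held 4.79%, far below the 11.2% of the summed UMIs, and in the labelled knockout it held 19.2%.

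A share is relative, and the classes differ in how many molecules a cell gave. The median Elane-high cell gave 4923 and 5007 RP UMIs in the control and labelled knockout, of 17915 and 17024 UMIs in all. The median Procr-positive cell gave 2093.5 and 2083 RP UMIs, of 6274.5 and 6054. The Elane-high cells thus had a smaller RP share but more RP UMIs per cell than the stem cell-like class, which comes from another gate and other libraries. The median plasma cell-like cell gave 1184 and 1444 RP UMIs, and the median monocyte-like cell 1009 and 2130.0. The median low-UMI Hlf-positive cell gave 4897 UMIs in all in the control and 2926 in the labelled knockout. The name of that class thus rests mostly on the labelled knockout, and its label comparison sets cells of unlike depth side by side. Whether UMIs per cell reflect RNA content or capture was not tested.

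A few very abundant products took much of the denominator in the differentiated classes. The 50 most abundant non-RP genes took 14.6% to 15.6% of UMIs in the 3 progenitor classes, 38.0% and 31.5% in plasma cell-like cells, where Jchain of the antibody joining chain led, and 47.3% and 34.2% in Ngp/Camp-high cells, where the alarmins S100a8 and S100a9 led. With those 50 genes taken out, the RP share was 39.1% and 40.5% in Procr-positive cells, 29.3% and 29.6% in plasma cell-like cells, and 21.3% and 27.2% in Ngp/Camp-high cells. The differentiated classes remained below the progenitor classes on this scale. Constant-region immunoglobulin genes such as Igkc and Ighg1 had no match in the files, so their molecules are in none of these totals.

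Both subunits were highest in Procr-positive cells and lowest in Ngp/Camp-high cells, while plasma cell-like and monocyte-like cells of the labelled knockout stood in opposite order for Rpl genes (11.3% and 11.1%) and Rps genes (9.03% and 10.1%). Rpl genes held 17.4% and 18.3% of UMIs in Procr-positive cells and Rps genes 15.8% and 16.1%. In Ngp/Camp-high cells Rpl genes held 5.98% and 9.38% and Rps genes 5.26% and 8.51%.

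Within the RP sum the same few genes led nearly everywhere. UMIs count a molecule once at its 3′ end, so levels of different genes were compared without division by length. Of the 83 genes, 78 gave at least 20 UMIs in all 14 sums of a class and a library. Among the most abundant, Rps19, the gene most often mutated in Diamond-Blackfan anaemia, took on average 3.01% of RP UMIs. Rpl32, Rpl13 and Rps14 took 2.98%, 2.93% and 2.91%. In Procr-positive cells Rps14 led, with 11084 and 11248 CPM. In Elane-high cells of the labelled knockout Rps19 led with 9604 CPM, whereas Rpl41 led in the control with 9078 CPM. The lowest of the 78 genes were Rps12 at 0.0295%, Rpl7l1 at 0.0411%, Rps27 at 0.0540%, Rpl23a at 0.101% and Rpl9 at 0.137% of RP UMIs.

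Such low values for subunits that every ribosome holds have to be read with the sequence of the genes. RP genes have many processed copies in the genome, and a read that matches 2 genes equally well is often not counted. All windows of 57 bases, the length of the second read, in the last 400 bases of 1 transcript per gene were compared with the transcripts of other genes. For Rps12 and Rpl9 100% of these windows occurred in another gene, for Rps27 98.6% and for Rpl23a 86.0%, but for Rpl7l1 0%. Of the 83 genes, 48 shared at least 50% of their windows and 18 shared none. Abundant genes were among those with many shared windows: Rps19 and Rpl13 shared 68.3% and 87.8%. The authors' treatment of such reads was not stated, so levels of genes with many shared windows are uncertain. Whether shared windows also affect comparisons of 1 gene between libraries was not tested.

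From Procr-positive to Flt3-positive cells the RP genes declined slightly and together. The share stood at 0.943 of the Procr-positive value in the control (95% interval 0.940 to 0.947) and at 0.946 in the labelled knockout (0.943 to 0.948). A gene is counted as higher or lower here where its CPM differed at least 1.5-fold in the same direction in both libraries, with at least 20 UMIs over each pair of sums. Of 80 RP genes measured, 0 differed so, beside 6.22% of 9554 genes of all kinds. The median log2 ratio of the RP genes was -0.08, against 0.05 over all genes. Low-UMI Hlf-positive cells differed even less from Procr-positive cells, with share ratios of 0.980 and 0.986. There too 0 of 80 RP genes passed, beside 4.02% of 8211 genes. With 1 library per label no test applies to either count.

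In plasma cell-like cells the share was 0.579 (0.576 to 0.583) and 0.623 (0.620 to 0.626) of that in Flt3-positive cells. Here 50 of 80 RP genes were lower and 3 higher, beside 43.4% lower and 10.8% higher of 8598 genes of all kinds. The median log2 ratio was -0.79 over the RP genes and -0.66 over all genes, so the median gene of all kinds was lower too. With scaling by the median ratio of non-RP genes 27 were lower and 3 higher. As a share of RP UMIs 3 were higher and 1 lower.

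The 3 RP genes that were higher in plasma cell-like cells were Rpl36al, Rps27l and Rpl41. Rpl36al, a copy of Rpl36a that encodes a nearly identical large subunit protein, stood at 2822 and 2778 CPM in plasma cell-like cells of the control and labelled knockout, and at 768 and 745 CPM in Flt3-positive cells. The ratio was 3.68 (3.44 to 3.93) in the control and 3.73 (3.53 to 3.94) in the labelled knockout. Rps27l, a paralogue of Rps27 known as a p53 target, stood at 763 and 671 CPM against 329 and 333 CPM, ratios of 2.32 (2.07 to 2.60) and 2.01 (1.83 to 2.21). Rpl41, which encodes the smallest ribosomal protein, stood at 6059.6 and 8122 CPM against 3384 and 4532 CPM, a ratio of 1.79 in both. Of their 3′ windows 60.5%, 25.3% and 54.4% occurred in another gene.

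The largest decline was that of Rpl22l1, the paralogue of Rpl22. It stood at 419.8 and 609 CPM in plasma cell-like cells against 2127 and 2039 CPM in Flt3-positive cells, ratios of 0.197 (0.176 to 0.221) and 0.299 (0.277 to 0.322). It was the 1 gene that was also lower as a share of RP UMIs, at 0.341 and 0.479. Rpl10a and Rpl3, both large subunit proteins, followed with ratios of 0.348 and 0.449 and of 0.354 and 0.451. Rpl7l1 (0.375 and 0.425), Rps12 (0.404 and 0.429) and Rps19 (0.402 and 0.484) completed the 6 largest declines.

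**Figure D2:**
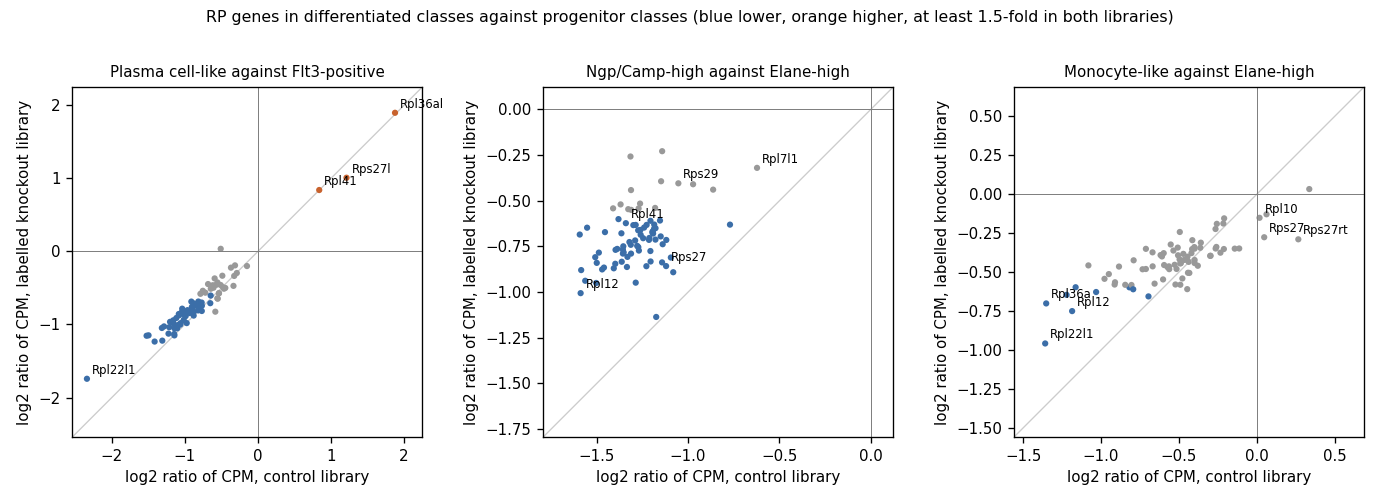
Log2 ratio of CPM of each RP gene in the control (x axis) and labelled knockout (y axis) library, for plasma cell-like against Flt3-positive cells, Ngp/Camp-high against Elane-high cells and monocyte-like against Elane-high cells. Points are genes with at least 20 UMIs over each pair of sums, and the grey diagonal marks equal ratios. Blue points were lower and orange points higher at least 1.5-fold in both libraries. Rpl36al, Rps27l and Rpl41 are the orange points, at the upper right of the first panel, and all 80 points of the middle panel lie above the diagonal, since the control ratios are lower.

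In the sinusoidal gate the RP genes were lower in the Ngp/Camp-high and monocyte-like classes than in Elane-high cells. Elane itself stood at 7616 CPM in Ngp/Camp-high and 16607 CPM in Elane-high cells of the control. In the labelled knockout it stood higher in the Ngp/Camp-high class, at 21054 against 15126 CPM. The Ngp/Camp-high class thus held different cells in the 2 libraries, and in the labelled knockout it is not clearly a later stage. The share in Ngp/Camp-high cells was 0.414 (0.409 to 0.419) of that in Elane-high cells in the control and 0.624 (0.621 to 0.627) in the labelled knockout. Of 80 RP genes 65 were lower and 0 higher, beside 24.8% lower of 6018 genes of all kinds. The median log2 ratio was -0.97 over the RP genes and -0.44 over all genes. Scaled by the median ratio of non-RP genes 36 were lower, and as a share of RP UMIs 0 were. Rpl12, a protein of the stalk base of the large subunit, declined most, from 1694 and 2054 CPM to 563 and 1023 CPM, ratios of 0.333 (0.282 to 0.390) and 0.498 (0.462 to 0.536). Rpl36, Rpl14, Rps2 and Rps21 were among the next, with mean log2 ratios of -1.25 to -1.17. 

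Monocyte-like cells held 0.699 (0.695 to 0.703) and 0.742 (0.740 to 0.745) of the share in Elane-high cells. Of 80 RP genes 9 were lower and 0 higher, beside 14.6% lower of 7452 genes of all kinds, a share near that of the RP genes, although their median log2 ratio was -0.47 against 0.02 over all genes. The 9 genes were Rpl31, Rpl12, Rpl36a, Rpl22l1, Rpl14, Rps19bp1, Rps2, Rps18 and Rpl36. Scaled by the median ratio of non-RP genes 26 were lower. Rpl22l1 again declined most, from 2357 and 2682 CPM to 919 and 1380.4 CPM, ratios of 0.390 (0.362 to 0.420) and 0.515 (0.492 to 0.538). Rpl36a went from 3608 and 3575 CPM to 1413 and 2199 CPM, ratios of 0.392 and 0.615. As a share of RP UMIs 0 genes passed.

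Paralogues divided between the classes. Rpl36a was the major form in Procr-positive cells, at 4008 and 4217 CPM against 742 and 707 CPM of Rpl36al, and the minor form in plasma cell-like cells, at 1635 and 1978 CPM against 2822 and 2778 CPM. As a share of RP UMIs Rpl36al ranged 8.05-fold over the 14 sums, the widest range of the 78 genes. All windows of Rpl36a and 60.5% of those of Rpl36al occurred in another gene, so their balance is uncertain. Whether shared windows affect the change of Rpl36al between classes was not tested. Rpl22l1 exceeded Rpl22 in Procr-positive cells (2031 and 2076 CPM against 1612 and 1591 CPM) and lay below it in plasma cell-like cells (419.8 and 609 against 1015 and 1158 CPM). It also lay below Rpl22 in monocyte-like cells of the control (919 against 1065 CPM), but not of the labelled knockout (1380.4 against 1277 CPM), and 56.7% of its windows were shared. Rpl22 itself did not pass 1.5-fold in both libraries between plasma cell-like and Flt3-positive cells (ratios of 0.623 and 0.734).

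Rps27l was higher in the Elane-high class, at 919 and 977 CPM, than in Procr-positive cells, at 316 and 295 CPM, but these classes come from different gates and libraries. Rpl7l1, a paralogue of Rpl7 that acts in ribosome assembly, stayed between 48.2 and 136 CPM in all 14 sums, against 968 to 3918 CPM of Rpl7. Rpl39l, Rpl3l and Rpl10l, known from testis or muscle, were near 0, with 51, 38 and 87 UMIs in all 3567 cells. Of the 38 Rpl3l UMIs, 15 came from the monocyte-like cells of the sinusoidal control. Rps4l had no match in the files.

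**Figure D3:**
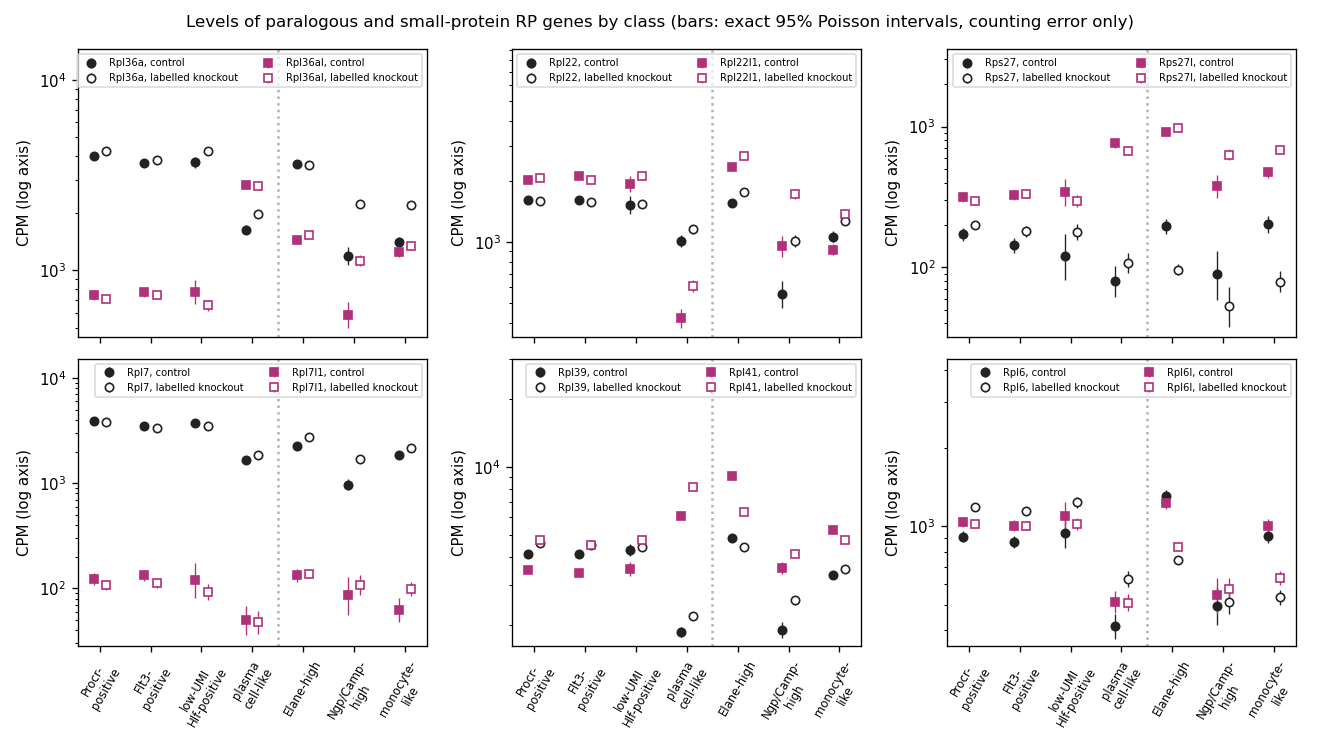
Level in CPM (y axis, log scale) of paralogue pairs and of the small-protein genes Rpl39 and Rpl41 in the 7 classes (x axis). A further panel sets Rpl6 beside Rpl6l, which is annotated as a processed pseudogene. Filled symbols are control and open symbols labelled knockout libraries, and bars are exact 95% Poisson intervals that cover counting error only. Rpl36al crosses Rpl36a, and Rpl22l1 lies below Rpl22, in plasma cell-like cells. Rpl22l1 is also below Rpl22 in the monocyte-like cells of the control.

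The other genes of protein synthesis were counted from lists, to be read against the 24.8%, 14.6% and 43.4% of all genes that were lower in Ngp/Camp-high, monocyte-like and plasma cell-like cells. Of 6 RP genes outside the symbol rule, 5 were lower in Ngp/Camp-high than in Elane-high cells and 3 in plasma cell-like than in Flt3-positive cells, the latter close to the share of all genes. Rplp0 of the ribosomal stalk stood at 6096 and 6234 CPM in Elane-high and 2385 and 3912 CPM in Ngp/Camp-high cells. Of 36 translation factors 16 were lower in Ngp/Camp-high cells, 6 in monocyte-like cells and 10 in plasma cell-like cells, where 1 was higher. The plasma cell-like count was below the share of all genes and the monocyte-like count near it. Genes of ribosome assembly and ribosomal RNA synthesis were lower by more than the RP genes. Of these, 27 of 36 measured were lower in Ngp/Camp-high cells, 29 of 38 in monocyte-like cells and 29 of 38 in plasma cell-like cells, with median log2 ratios of -1.62, -1.37 and -1.31. Npm1, a nucleolar chaperone, stood at 1318 and 1618 CPM in Elane-high cells, 207 and 454 CPM in Ngp/Camp-high cells and 608 and 1038 CPM in monocyte-like cells. Ncl, the nucleolar protein nucleolin, stood at 625 and 588 CPM in Flt3-positive cells and 165 and 185 CPM in plasma cell-like cells.

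Mitochondrial RP genes, which serve the separate ribosome of mitochondria, were lower for 28 of 76 in Ngp/Camp-high cells, for 17 of 76 in monocyte-like cells (2 higher) and for 19 of 76 in plasma cell-like cells (8 higher). In plasma cell-like cells the lower ones were a smaller part than among all genes, and the higher ones about the same part (10.8% of all genes). Their median log2 ratio there was -0.28, above the -0.66 of all genes. In the 2 comparisons among progenitors 0 mitochondrial RP genes and 0 translation factors passed in either direction. Of 12 regulators, 4 were lower and 2 higher in plasma cell-like cells, a smaller part lower than among all genes. In monocyte-like cells 1 of 11 measured was lower and 1 higher, in Ngp/Camp-high cells 2 of 8 lower and 1 higher. Myc stood at 153 and 144 CPM in Flt3-positive cells and 7.50 and 18.8 CPM in plasma cell-like cells. It stood at 66.2 and 68.9 CPM in Elane-high cells and 6.09 and 15.9 CPM in monocyte-like cells. Mxd4 and Mtor went the other way in plasma cell-like cells. Mxd4 stood at 124 and 131 CPM there against 79.2 and 73.1 CPM in Flt3-positive cells, and Mtor at 17.5 and 18.8 against 8.80 and 9.41 CPM. Mycn stood at 194 and 151 CPM in Procr-positive cells and at 0 CPM in all 6 sums of the sinusoidal gate.

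Of 902 non-RP genes compared, those whose log2 CPM followed the RP share most closely over the 14 sums were Rplp1, another ribosomal protein gene (Pearson's r of 0.983), Eef1b2, an elongation factor (0.971), Gnb2l1, the small subunit protein RACK1 (0.965), Hsp90ab1, a chaperone (0.963), and Naca, which binds emerging chains at the ribosome (0.956). The 14 sums come from 4 libraries and share their depth and composition, so these are descriptions.

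By label, the RP share was higher in the labelled knockout in all 7 classes, with ratios of 1.03 in Procr-positive cells (1.03 to 1.04), 1.04 in Flt3-positive cells, 1.04 in low-UMI Hlf-positive cells, 1.12 in plasma cell-like cells (1.11 to 1.12), 1.05 in Elane-high cells, 1.12 in monocyte-like cells (1.11 to 1.13) and 1.59 in Ngp/Camp-high cells (1.57 to 1.61). The 4 type H classes rest on 1 pair of libraries and the 3 sinusoidal classes on another, so the common direction rests on 2 pairs of libraries and not on 7 independent comparisons. Elane-high cells joined 2 clusters, with shares of 25.6% (45 control cells) and 27.1% (148 labelled knockout cells), and of 29.7% (26) and 30.2% (143). The 2 clusters of Procr-positive cells held 33.2% and 34.99%, and 33.5% and 33.9%. Those of Flt3-positive cells held 31.1% and 32.3%, and 31.7% and 32.9%. The label gap was thus smaller in the second cluster of Elane-high and Procr-positive cells. The part of the cluster mix was not tested. In plasma cell-like cells Jchain took 191759 CPM under the control label and 123088 CPM under the other, and with the 50 most abundant non-RP genes taken out the log2 ratio fell from 0.16 to 0.014.

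The label difference in Ngp/Camp-high cells went with which cells each library held. Of the 26 control cells, 7 had Elane at 50 or more per 10000 non-RP UMIs, and their RP share was 19.4%, while the other 19 held 5.87%. Of the 53 cells of the labelled knockout, 46 were of the first kind, with 18.9%, and 7 of the other, with 7.39%. Within each kind the labels differed less than the kinds did. Ltf, a gene of late granules, stood at 8.69 and 49.6 CPM in the Elane-bearing cells and at 10357 and 9381 CPM in the others. The split was chosen after the values had been seen.

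The label difference in monocyte-like cells was seen in 1 of the 3 clusters of the class. The cluster led by Fn1 and Lyz2 held 19.1% in 106 control cells and 18.6% in 53 cells of the labelled knockout. The cluster led by F13a1 and Chil3 held 18.6% in 19 control cells and 22.0% in 79 cells of the labelled knockout, and that led by Ear2 held 19.4% in 46 and 15.3% in 5 cells. The share was thus higher with the labelled knockout in the second cluster and lower in the other two. Most control cells lay in the first cluster and most cells of the labelled knockout in the second. Top2a and Mki67 of dividing cells stood at 85.2 and 42.6 CPM in the control class and at 332 and 169 CPM in the labelled knockout, and their part in the result was not tested. With no filter on cells the log2 ratio of the class was -0.053, and with a strict filter -0.044, in place of 0.16.

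Gene by gene, few RP genes differed by label in the type H gate. At least 1.5-fold were 2 higher and 1 lower of 80 in Procr-positive cells (5.77% and 4.41% of 10370 genes of all kinds), 2 higher and 0 lower in Flt3-positive cells (5.94% higher), 3 higher and 2 lower in low-UMI Hlf-positive cells (13.2% and 16.6%) and 4 higher and 0 lower in plasma cell-like cells (17.3% higher). These shares of RP genes were at or below those of all genes. In low-UMI Hlf-positive cells the split was 6 higher and 0 lower with scaling by non-RP genes.

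Rpl23a and Rpl35, both proteins around the exit tunnel of the large subunit, were higher in all 4 type H classes. In Procr-positive cells Rpl23a went from 252 to 445 CPM, a ratio of 1.77 (1.59 to 1.97), and its ratio was 1.86, 2.24 and 1.88 in Flt3-positive, low-UMI Hlf-positive and plasma cell-like cells. Rpl35 stood at 1095 and 1779 CPM in Procr-positive cells, a ratio of 1.62 (1.55 to 1.71), and its ratio lay between 1.62 and 1.69 in the 4 classes. The other genes named by size were Rpl9 in low-UMI Hlf-positive cells (397 and 602 CPM, ratio 1.52), and Rps19bp1 and Rpl6 in plasma cell-like cells (ratios 1.69, 1.07 to 2.76, and 1.52, 1.34 to 1.73). Rps12 was lower in Procr-positive cells, at 105 and 58.6 CPM, a ratio of 0.560 (0.459 to 0.683).

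In Elane-high and monocyte-like cells of the sinusoidal gate the same 2 genes stood the other way, while in Ngp/Camp-high cells Rpl35 was nearly equal (819 and 805 CPM, ratio 0.983, 0.844 to 1.15). In Elane-high cells Rpl23a went from 423 CPM with the control label to 177 CPM, a ratio of 0.418 (0.376 to 0.466), and Rpl35 at 2403 and 1261 CPM, a ratio of 0.525 (0.503 to 0.548). In all, 14 of 82 RP genes were lower and 1 higher in Elane-high cells, beside 9.81% lower and 7.88% higher of 9286 genes. Rps27, Rpl27, Rps27rt and Rps12 had ratios of 0.492, 0.509, 0.516 and 0.516. The 1 higher gene, Rpl39l, rested on 3 and 25 UMIs, a ratio of 2.10 with an interval from 0.640 to 10.8. The median log2 ratio of the 82 genes was 0.16, so most RP genes were slightly higher while a small set was clearly lower.

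In monocyte-like cells 7 RP genes were higher and 12 lower of 80, beside 17.6% and 18.5% of 7679 genes. As a share of RP UMIs 0 were higher and 15 lower. Rpl12 (745 and 1221 CPM), Rps20 (1576 and 2571 CPM) and Rpl14 (2151 and 3445 CPM) were higher, with ratios of 1.64, 1.63 and 1.60, and Rpl7l1, Rps2 and Rpl36a followed with 1.57, 1.56 and 1.56. Rps27rt (935 and 328 CPM), Rps27 (202 and 79.4 CPM) and Rpl10 (719 and 339 CPM) were lower, with ratios of 0.351, 0.393 and 0.471, followed by Rpl9 (0.495), Rpl23a (0.498) and Rpl27 (0.532). Rpl12, Rpl14, Rpl36a and Rps2 were also among the genes that separated monocyte-like from Elane-high cells.

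In Ngp/Camp-high cells 52 RP genes were higher and 2 lower of 80, beside 29.1% and 10.5% of 4220 genes. Rps19 went from 3339 to 6718 CPM, a ratio of 2.01 (1.88 to 2.16), and Rpl14, Rps23, Rps18, Rpl36al and Rps4x had ratios of 1.97 to 1.92. As a share of RP UMIs 0 were higher and 16 lower, and with scaling by non-RP genes 27 were higher and 4 lower. Rps12 was lower, with 21 and 29 UMIs (ratio 0.530, 0.292 to 0.978). The cells that the 2 libraries put in this class differed, as given above for the Elane split.

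**Figure D4:**
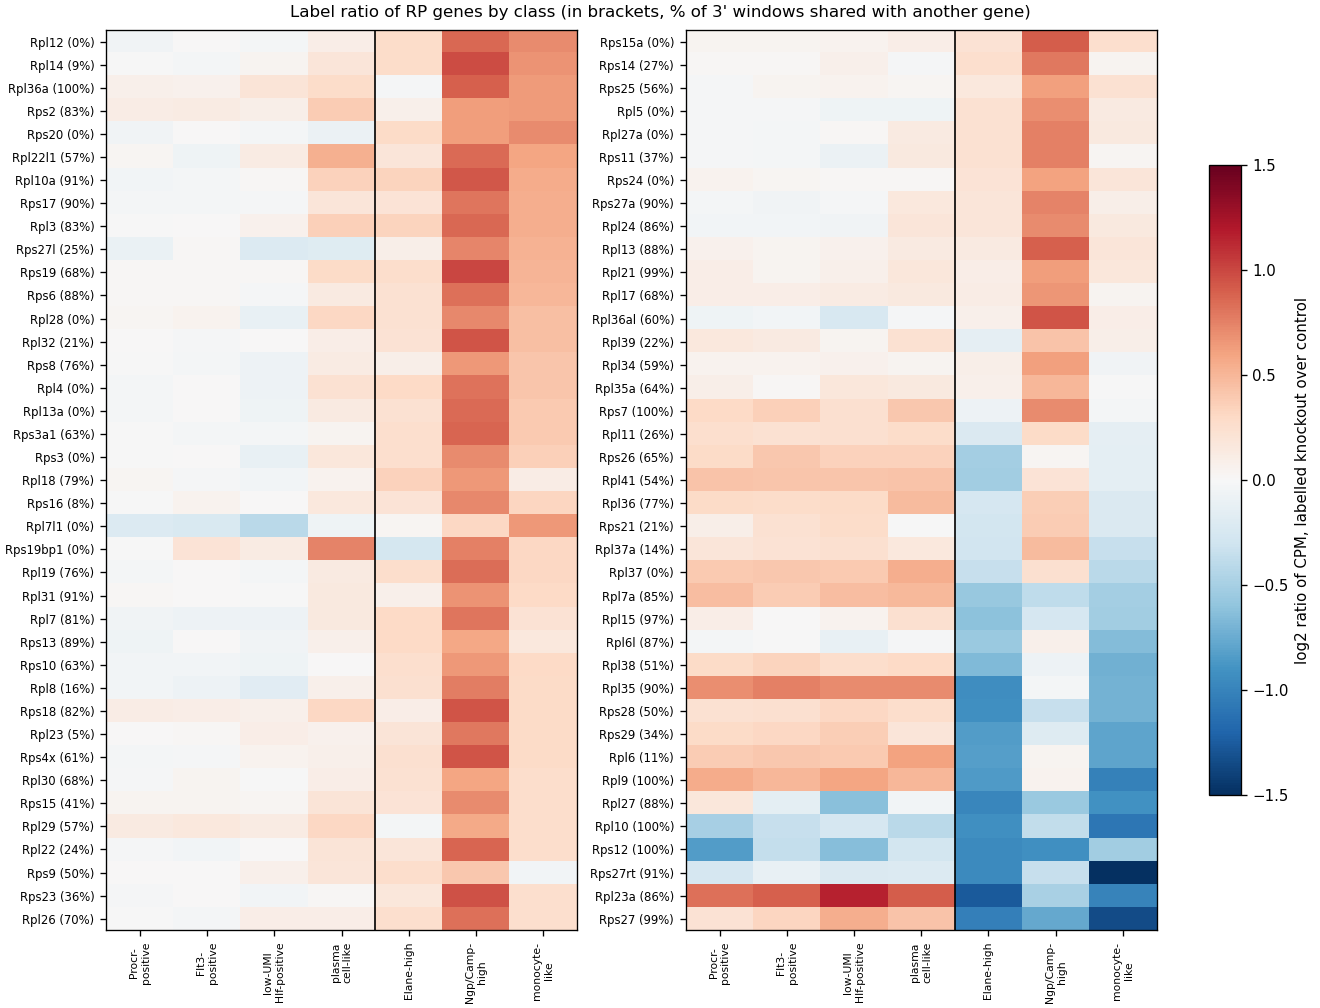
Log2 ratio of CPM, labelled knockout over control, of 78 of the 80 RP genes with at least 20 UMIs in all 7 classes (rows, in falling order of their median in the sinusoidal classes) in each class (columns). Red is higher and blue lower in the labelled knockout, and brackets give the share of 3′ windows that occur in another gene. The black line parts the type H classes from the sinusoidal ones, and most of the last 13 rows are red to its left and blue to its right, whereas Rpl10, Rps12 and Rps27rt are blue on both sides.

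Over all classes, 34 of the 80 genes (42.5%) were above 1 in all 4 type H classes, beside 8.53% of 3610 genes of all kinds with 20 or more UMIs in all 7 comparisons. In all 3 sinusoidal classes 50 (62.5%) were above 1, beside 24.5%, and 12 (15%) below 1, beside 11.9%, so the last count is near that of all genes. The classes of a gate share their libraries. A small ratio keeps its side of 1 more often where counts are high, and the 3610 genes were not matched to the RP genes in UMIs. Rps24, for example, gave at least 563 UMIs in each sum, and its type H ratios ran from 1.012 to 1.035. The 12 below 1 in all 3 sinusoidal classes were Rpl7a, Rpl35, Rpl10, Rps27, Rps12, Rpl15, Rps27rt, Rpl23a, Rpl27, Rpl38, Rps29 and Rps28. Their median log2 ratio in the sinusoidal gate was -0.85, against 0.28 for the other 68. Of the 12, 11 shared at least 50% of their 3′ windows with another gene, with a median of 88.8%, against 37 of the other 68, with a median of 56.5%. Rps29, at 34.4%, was the exception. Rpl6, with 10.8% shared, was also lower in Elane-high cells (1314 and 744 CPM, ratio 0.566) and monocyte-like cells (919 and 533 CPM, ratio 0.580), but not in Ngp/Camp-high cells. The 12 were chosen by their values, and whether shared windows have a part in the difference was not tested. UMIs of RP genes with -ps in their symbol, which are copies of RP genes, came to 2.09% of the RP UMIs in the control and 1.62% in the labelled knockout of the type H gate, and 3.94% and 2.10% in those of the sinusoidal gate. The sinusoidal control was thus the highest.

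**Figure D5:**
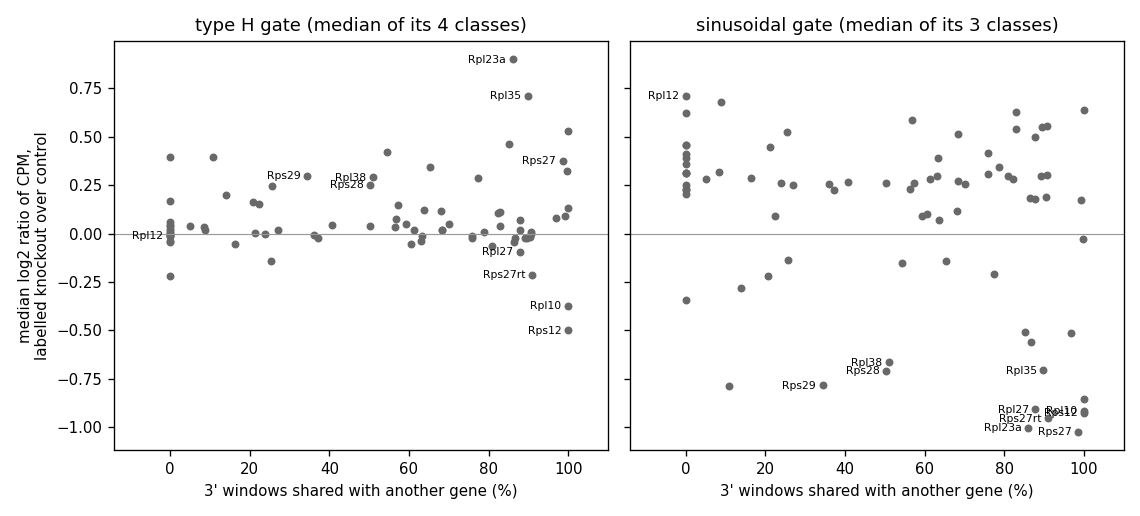
Share of a gene's 3′ windows of 57 bases that occur in another gene (x axis, percent) and the median log2 ratio of CPM, labelled knockout over control (y axis), for 80 RP genes in the type H classes (left) and the sinusoidal classes (right). Each point is a gene. Ratios near 0 in the type H gate belong to genes along the whole x axis, and Rpl23a and Rpl35, at 86.0% and 89.8% on the x axis, are the highest on the left and among the lowest on the right.

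For 15 of the measured genes no window was shared. Among them were Rpl12, Rps20, Rpl5, Rpl4 and Rps24. Their median log2 ratio was 0.0012 in the type H gate and 0.31 in the sinusoidal gate. The search covered 1 annotated transcript per gene and other annotated transcripts, not the whole genome, and the transcript used can end elsewhere than the one counted (that of Rps20 was 3706 bases long). With only the RP genes under 50% shared windows summed, the log2 ratio of the share was 0.039 in Procr-positive cells, 0.12 in plasma cell-like cells and 0.11 in Elane-high cells, against 0.049, 0.16 and 0.077 over all RP genes, and its direction was the same without the genes with many shared windows.

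The 4 X-linked genes, Rpl39 (chrX:37082520-37085402), Rpl10 (chrX:74270812-74273135), Rps4x (chrX:102184941-102189394) and Rpl36a (chrX:134585654-134588062; all GRCm38), had no common direction by label. Rps4x stood at 9025 and 8809.9 CPM in Procr-positive cells and 4791 and 5658 CPM in Elane-high cells, and Rpl39 at 4120.4 and 4607 CPM and at 4855 and 4408 CPM. Rpl10, one of the last proteins to join the large subunit, stood at 476 and 338 CPM and at 711 and 376.5 CPM, with 100% of its windows shared. In the Procr-positive class the RP share was 33.9% and 35.2% in Xist-bearing cells without Y-linked UMIs, and 33.0% and 34.2% in the reverse case, so the label difference was seen in both.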

How the data were processed

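The deposited matrices hold raw UMI counts per gene and barcode for 4 libraries, 1 per group. Per the submitters' processing notes they were made with Cell Ranger and Seurat on mm10; not given in the sources used here were versions, annotation release and the handling of reads that match several genes. The second read had 57 cycles.

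From these counts, 3567 of 3641 barcodes were kept, those with 200 or more detected genes and a mitochondrial share below 10%. They were clustered without RP genes (Python 3.11.15, scanpy 1.11.5, leidenalg 0.10.2, numpy 2.4.6, scipy 1.17.1): scaling to 10000 UMIs, 2000 variable genes, 30 components, 15 neighbours, Leiden resolution 1. Of 20 clusters 12 entered the 7 classes by marker levels, a rule set after the clusters had been seen. No doublet caller was run, and 1.51% to 2.56% of cells per library held both Xist and Y-linked UMIs. UMIs were summed per class and library. A gene was counted as higher or lower at 1.5-fold or more with at least 20 UMIs over both sums, with 0.5 UMI added to each sum for log2 values. Intervals are exact at 95% (Clopper-Pearson, Poisson or conditional binomial). With 1 library per group no test or p-value is given. The calling step was tested on simulated counts.

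Named genes are, per comparison and direction, up to 6 with the largest ratio past 1.5-fold (by label, with an interval that leaves out 1), the 5 highest and 5 lowest genes, the paralogue pairs, the X-linked genes and the 5 genes most like the RP share. A few genes that this rule names are not reported here. Genes such as Rpl6, Rpl6l and Rpl39l in some sentences were added after their values were seen. The RP genes and all lists were chosen with earlier results of these data known. Alternatives covered the classes, cell filters, denominator, weighting, scaling, gene filter and sex of the cells.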

Additional observations from a re-analysis of the deposited data

Results flagged for a closer look

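For 11 RP genes the ratio of labelled knockout to control lay on one side of 1 in all 4 type H classes and on the other in all 3 sinusoidal classes. These are 13.8% of the 80 RP genes measured, beside 4.29% of 3610 genes of all kinds. The difference between the gates was not tested, and the classes of a gate share 1 pair of libraries. The 3610 genes were not matched to the RP genes in UMIs, and a small ratio keeps its side of 1 more often where counts are high.

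Of these, 8 were higher in the type H gate and lower in the sinusoidal gate, as were 1.58% of all genes. The median log2 ratios in the type H and sinusoidal gate were 0.90 and -1.005 for Rpl23a, 0.71 and -0.71 for Rpl35, 0.47 and -0.51 for Rpl7a, and 0.37 and -1.02 for Rps27. They were 0.30 and -0.79 for Rps29, 0.29 and -0.67 for Rpl38, 0.25 and -0.71 for Rps28, and 0.078 and -0.52 for Rpl15. For Rpl7a, Rps29 and Rps28 the exact interval left out 1 in all 7 classes, and for Rpl15 in 3. At least 50% of the 3′ windows of 7 of the 8 genes occurred in another gene, and its part in the result was not tested.

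The other 3 went the opposite way, with smaller values: -0.042 and 0.23 for Rpl5, -0.057 and 0.10 for Rpl36al, and -0.22 and 0.31 for Rpl7l1, whose interval left out 1 in 1 class.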

How the results depend on the processing

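No paired analysis was possible because each group is 1 library; for the same reason no replicate could be left out. Over 88 alternatives for the RP share, 33 moved it by less than its counting interval, 53 by more, and 2 reversed it. All values here are log2 ratios, first by label and then between classes, and the cause of each shift was not tested except where the alternative itself removes cells or genes. The label ratio of monocyte-like cells (0.16) became -0.053 with no filter on cells and -0.044 with a strict filter, each of which forms the clusters anew. Depth limits the low-UMI Hlf-positive and Ngp/Camp-high classes most, with 48 and 26 control cells.

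Marker gates gave by label 0.11 in Flt3-positive, 0.14 in plasma cell-like, 0.097 in Elane-high, 0.53 in Ngp/Camp-high and 0.24 in monocyte-like cells, and between classes -0.16 for Flt3-positive against Procr-positive, -0.87 for Ngp/Camp-high against Elane-high, -0.32 for monocyte-like against Elane-high and -0.63 for plasma cell-like against Flt3-positive cells. They left under 20 control cells of the low-UMI class, which has no value. RP genes kept in the clustering gave 0.11 in monocyte-like cells by label, -0.52 for monocyte-like and -0.73 for plasma cell-like cells. No filter on cells gave by label 0.076 in low-UMI, 0.20 in plasma cell-like and 0.088 in Elane-high cells, and -0.89, -0.49 and -0.75 for Ngp/Camp-high, monocyte-like and plasma cell-like cells. The strict filter gave by label 0.061, 0.045, 0.078 and 0.14 in Procr-positive, Flt3-positive, low-UMI and plasma cell-like cells, and -0.056, -0.91 and -0.50 for Flt3-positive, Ngp/Camp-high and monocyte-like cells.

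Without the 50 most abundant non-RP genes the label ratios were 0.057, 0.014, 0.35 and 0.12 in Flt3-positive, plasma cell-like, Ngp/Camp-high and monocyte-like cells, and the class ratios -0.49, -0.42 and -0.35 for Ngp/Camp-high, monocyte-like and plasma cell-like cells. The mean of single cells gave by label 0.17, 0.94 and 0.089 in plasma cell-like, Ngp/Camp-high and monocyte-like cells, and -0.014, -1.15, -0.51 and -0.76 for low-UMI, Ngp/Camp-high, monocyte-like and plasma cell-like cells. Cells with Y-linked and no Xist UMIs gave by label 0.053, 0.091, 0.13, 0.060 and 0.29 in Procr-positive, low-UMI, plasma cell-like, Elane-high and monocyte-like cells, with under 20 control cells in the Ngp/Camp-high class. RP genes with under 50% shared windows, chosen after seeing the data, gave by label 0.039, 0.043, 0.12, 0.11, 0.69 and 0.18 in Procr-positive, low-UMI, plasma cell-like, Elane-high, Ngp/Camp-high and monocyte-like cells, and -0.995, -0.46 and -0.70 for Ngp/Camp-high, monocyte-like and plasma cell-like cells.

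Counts of RP genes past 1.5-fold were within 1.5 times in 35 of 48 alternatives. With no gene filter they were 5 in place of 3 in Procr-positive and 4 in place of 2 in Flt3-positive cells by label, and 1 in place of 0 for Flt3-positive and for low-UMI against Procr-positive cells. As a share of RP UMIs they were 1 in place of 4 in plasma cell-like and 16 in place of 54 in Ngp/Camp-high cells by label, and 0, 0 and 4 in place of 65, 9 and 53 for Ngp/Camp-high, monocyte-like and plasma cell-like cells. With median-of-ratios scaling they were 31 in Ngp/Camp-high cells by label, and 36, 26 and 30 for those classes. Of 37 levels of named genes under that scaling 0 changed direction.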
